A study of Drosophila melanogaster with 23 samples.

Results

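Ageing of the heart was followed in attp2 flies, a control strain of Drosophila melanogaster, by comparing bulk RNA sequencing of dissected hearts at 5 weeks and at 1 week of adult age. The comparison used 10 of the 23 libraries of the series, all those that the labels give the strain attp2 with no RNAi, 5 at each age, and every gene of the deposited count table. That table listed 17104 genes, of which 10044 had enough counts to be tested. The other libraries were 8 of the control strain w1118, 4 at each of the same ages, and 5 of 1-week flies that carried Lamin C RNAi driven in the heart by the Hand promoter in the attp2 strain. The design text gives the aim of the attp2 ageing libraries as a check of age-dependent expression in a further wild-type strain and as a partner for the Lamin C RNAi hearts.

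The attp2 groups were labelled by strain, tissue and age, and differed by label in age alone. attP2 is a landing site for transgenes on the third chromosome, and flies that carry it are a usual background for RNAi lines. The labels gave neither the sex of the flies nor the number of hearts in a library. Whether the libraries at 1 age were made from different pools of hearts was not stated, so every p-value below measures the spread between these libraries, which may be in part technical.

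The fly heart is an open tube of striated cardiomyocytes along the dorsal midline, flanked by pericardial nephrocytes and bordered by fat body, oenocytes and ventral longitudinal muscle. It pumps haemolymph without vessels, and its contraction relies on the same sarcomere, calcium cycling and mitochondrial machinery as other striated muscle. Ageing in flies is known for a slow loss of cardiac rhythm, for rising expression of antimicrobial peptides in many tissues and for falling expression of mitochondrial genes.

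The attp2 libraries held 45055718 to 77082717 counts at 1 week and 48327357 to 90030108 at 5 weeks, and 11281 to 11928 genes had a count in a library. Levels are given as CPM (counts scaled to a library total of 1000000) on the TMM scale, in the order of library numbers 1 to 5. Tissue beside the heart was present at both ages: Cyp4g1, a cytochrome P450 of oenocytes, took 10.2 to 17.16% of counts at 1 week and 11.2 to 13.8% at 5 weeks. Fewer cells of a type and less RNA per cell cannot be told apart in bulk libraries. Summed over 28 gut markers, the level was 71.5, 103, 12759, 54.2 and 81.2 CPM at 1 week and 50.1, 113, 18444, 957 and 109 CPM at 5 weeks, so library 3 of each age, and to a lesser degree library 4 at 5 weeks, carried gut RNA. Libraries 1 and 2 of both ages also stood apart from 3 to 5 in the clock gene tim, at 182, 186, 654, 616 and 638 CPM and 155, 180.1, 574, 660.1 and 640.2 CPM, and the labels give no reason. Where a list's count of at least 3 called members moved by over 1.5 times without the libraries of high gut level, in libraries 3 to 5 alone, with library totals or without any single library, the moved counts follow it; libraries 1 and 2 alone gave few calls of any kind. In the libraries labelled Lamin C RNAi, which enter the age test only through the shared estimate of spread, LamC averaged 149 ± 42.4 CPM against 171 ± 33.6 CPM in attp2 at 1 week (log2 fold change -0.20, adjusted p = 0.63), so the targeted transcript was not detectably lower there.

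Between 1 and 5 weeks 964 genes rose and 1054 fell at an adjusted p under 0.05 in edgeR's quasi-likelihood test with Benjamini-Hochberg adjustment, or 9.6% and 10.5% of the genes tested. The median log2 fold change, 5 weeks over 1 week, was 0.03 over all genes tested, 0.57 over those that rose and -0.57 over those that fell. Of the calls, 266 rises and 215 falls were at least 2-fold. In 692 of the genes that rose all 5 old libraries lay above all 5 young ones, and in 762 of those that fell they lay below, where 8.42% and 8.7% of all tested genes showed the same separation. The balance of rises and falls depended on the scaling: with library totals alone the median of all genes moved to 0.21 and the split to 1790 higher and 488 lower, or 78.6% of calls higher against 47.8% with TMM. Changes below are therefore relative to the middle of the TMM-scaled genes. Gene lists are described by how many of their tested members rose or fell and by their median, to be read against the 9.6% and 10.5% background and the median of 0.03.

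The label heart was checked against 11 testable cardiac and pericardial markers. Hand, a transcription factor of cardiomyocytes and pericardial cells, was at 305, 255.5, 182, 228 and 360.0 CPM at 1 week and 356, 349, 221, 208 and 337 CPM at 5 weeks, and the groups overlapped. tin, the NK homeobox gene of contractile cardiomyocytes, ran from 5.32 to 7.55 CPM and from 3.64 to 5.72 CPM, svp, a nuclear receptor of ostial cells, from 105 to 126 CPM and from 100.2 to 131 CPM, and Mef2, the muscle transcription factor, from 60.04 to 69.1 CPM and from 55.6 to 59.0 CPM. prc, which encodes the heart collagen Pericardin, was low at both ages, at 0.841 ± 0.505 and 0.968 ± 0.473 CPM (mean ± SD, n = 5 each). 4 of the 11 markers were lower at 5 weeks (H15, Ork1, Doc3 and Sur) and 0 were higher, with a median log2 fold change of -0.16 that turned to 0.02 with library totals, where 2 of the markers fell. The count was also 2 without the libraries of high gut level, 2 in libraries 3 to 5 alone and 2 without young library 5. Of the 19 ovary and 8 neuron markers tested, 0 and 0 passed in edgeR's test, 0 and 0 had an unadjusted p under 0.05, and 0 and 0 passed with DESeq2. Ovary RNA still varied between libraries. Summed over the 19 ovary markers, the level was 25.8, 26.7, 227, 67.5 and 94.2 CPM at 1 week. At 5 weeks it was 23.5, 28.3, 63.7, 343 and 41.5 CPM.

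Genes of the humoral immune response were among the largest increases. Flies answer some kinds of bacterial peptidoglycan through the Imd pathway, and fungi and many Gram-positive bacteria through Toll. Both pathways end in secretion of antimicrobial peptides by fat body and other tissues. Of 13 Imd-dependent peptide genes 11 rose and 0 fell, with a median log2 fold change of 2.78. Dro, which encodes drosocin, was at 25.2, 17.8, 7.50, 66.5 and 6.44 CPM in the young libraries and at 2233, 2118, 690.1, 255.3 and 1236 CPM in the old ones. Every old library lay above every young one, library 4 of each age came nearest to the other group, and the log2 fold change was 5.73 ± 0.78 (± SE; adjusted p = 0.00025). DptA, the diptericin gene, went from 27.4, 36.3, 2.54, 139.5 and 5.99 CPM to 1517, 1690.0, 944, 343 and 2288 CPM. Its groups were also separate, with young library 4 as the highest of the young and old library 4 as the lowest of the old, and the log2 fold change was 5.00 ± 1.04 (adjusted p = 0.0043).

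The attacin gene AttC rose from 185 ± 96.9 to 1281 ± 509 CPM (mean ± SD, n = 5; log2 fold change 2.79 ± 0.52, adjusted p = 0.0021), and Mtk, the gene of the antifungal metchnikowin, from 72.0 ± 31.2 to 499.8 ± 206 CPM (2.79 ± 0.41, adjusted p = 0.00044). The defensin gene Def was at 0.358, 0.219, 0.755, 0.979 and 0.108 CPM and then at 6.93, 62.4, 2.30, 1.22 and 22.1 CPM, a wide spread in which old library 2 stood highest, with a log2 fold change of 5.31 ± 1.13 (adjusted p = 0.0051). Def overlaps magu on the other strand, and no source used here gives the strand setting of the counting. AttA, AttB, AttD, CecA1 and CecA2 also rose, by 2.02 to 2.78 on the log2 scale, but in each of them old library 4 fell within the range of the young libraries, and AttA with AttB and CecA1 with CecA2 are near-identical pairs whose reads may have been split by the counting. The 2 members that did not pass were CecB (1.14 ± 0.59, adjusted p = 0.20) and CecC (0.02 ± 0.38, adjusted p = 0.98). Summed over the list, the level was 1153, 1138, 326, 1051 and 365 CPM at 1 week and 8776, 9363, 4802, 2263 and 9191 CPM at 5 weeks.

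The number of peptide genes called depended on the libraries used. With attp2 libraries 3 to 5 alone 3 of the 13 genes passed and with libraries 1 and 2 alone 7 did, with medians of 3.01 and 2.45; both divisions were chosen after the clock gene levels were seen. Without the libraries of high gut level 10 passed.

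**Figure D1:**
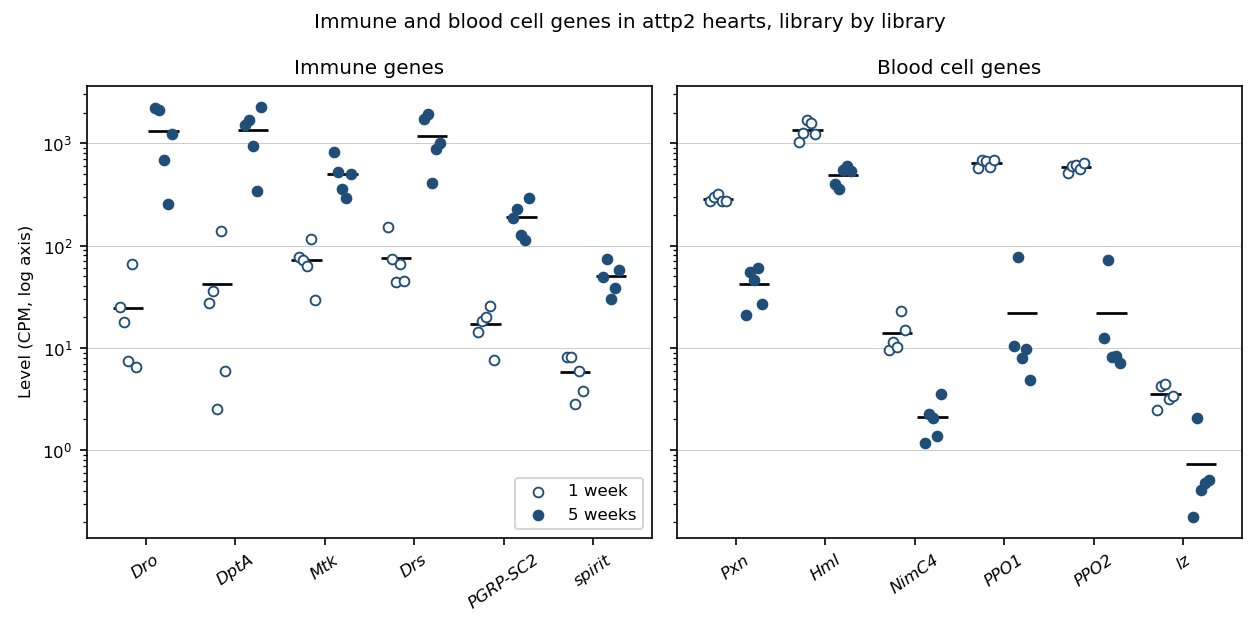
Level in each attp2 library (CPM on a log axis, open circles 1 week, filled circles 5 weeks, horizontal bars the group means) for 6 immune genes on the left and 6 blood cell genes on the right. The 5 old libraries lie above the 5 young ones for each immune gene and below them for each blood cell gene, and PPO1, PPO2 and lz are highest among the old libraries in library 2.

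Of the Toll-dependent peptide genes 2 of 17 rose. Drs, the drosomycin gene, was at 152, 73.7, 43.5, 66.4 and 44.6 CPM and then at 1734, 1913, 408, 873 and 1016 CPM, with no overlap and a log2 fold change of 3.97 ± 0.52 (adjusted p = 0.00020). IM1, a short bomanin peptide gene, rose by 2.23 on the log2 scale (adjusted p = 0.034) with overlapping groups. Drsl4, a drosomycin-like gene, fell from 19.7 ± 6.85 to 3.35 ± 4.41 CPM (log2 fold change -2.56 ± 0.83, adjusted p = 0.043). edin, an immune-induced secreted peptide gene outside these lists that lies within Oatp74D on the same strand, rose from 2.37 ± 1.69 to 82.2 ± 50.4 CPM (5.11 ± 0.84, adjusted p = 0.00089).

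Some genes that sense or limit the response also rose. A list of the peptidoglycan recognition (PGRP) genes together with GNBP1, GNBP2 and GNBP3 had 5 of 15 tested members higher and 0 lower. All 5 were PGRP genes. PGRP-LC and PGRP-LB were among the members that did not pass (0.07 and 0.26, adjusted p = 0.83 and 0.62). The number higher became 2 in libraries 3 to 5 alone. PGRP-SC2, a secreted amidase that degrades peptidoglycan, was at 14.3, 18.1, 19.996, 25.4 and 7.61 CPM at 1 week and 187, 229, 128, 114 and 289 CPM at 5 weeks. The lowest old library was several times the highest young one (log2 fold change 3.47 ± 0.45, adjusted p = 0.00019). PGRP-SB1 rose by 1.57, PGRP-SD, a secreted receptor, by 1.21, PGRP-LE, an intracellular Imd receptor, by 0.76 and PGRP-SC1b, which averaged under 1 CPM at 1 week, by 3.70 on the log2 scale (adjusted p = 0.0035, 0.017, 0.0037 and 0.0090). Downstream of the receptors 4 of 15 Imd pathway genes rose: key, the IKK gamma subunit gene, which overlaps CG3589, by 0.80, the ubiquitin-conjugating pair ben and Uev1A by 0.41 and 0.26, and the deubiquitinase gene CYLD by 0.34. That count became 7 with library totals and 2 without the libraries of high gut level or in libraries 3 to 5 alone. The transcription factor gene Rel was at 1526 ± 647 and 922 ± 304 CPM (-0.73 ± 0.36, adjusted p = 0.18).

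Among 16 Toll pathway genes 1 rose and 2 fell. The serine protease gene spirit went from 8.07, 8.19, 2.79, 5.87 and 3.80 CPM to 49.7, 73.3, 29.7, 38.5 and 58.3 CPM, again without overlap (log2 fold change 3.12 ± 0.51, adjusted p = 0.00086). The protease gene grass and the kinase gene pll fell, by 0.79 and 0.72 on the log2 scale (adjusted p = 0.0063 and 0.0088). In the JAK/STAT list 1 of 12 rose, the virus-induced gene vir-1, from 1486 ± 174 to 2795 ± 347 CPM (0.91 ± 0.17, adjusted p = 0.0022). Of the 5 thioester protein genes 1 fell and 0 rose; Tep1 fell to 0.753 ± 0.338 CPM from 3.74 ± 2.62 CPM (-2.32 ± 0.45, adjusted p = 0.0030).

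Further secreted enzyme genes stood among the largest rises. SPH93, a serine protease homologue, was at 1.47, 1.05, 2.59, 7.95 and 0.902 CPM and then 145, 199.6, 10.3, 37.1 and 26.8 CPM (4.91 ± 0.99, adjusted p = 0.0037). CG4757, a predicted carboxylesterase gene, was at 8.62, 1.60, 4.88, 8.30 and 4.78 CPM and then 189, 284, 52.2, 37.7 and 116 CPM (4.59 ± 0.92, adjusted p = 0.0035). In both the old libraries lay above the young ones, with old libraries 1 and 2 the highest of their group.

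Genes of circulating and heart-attached blood cells fell. Haemocytes of the adult fly gather around the heart, where plasmatocytes engulf microbes and debris and crystal cells supply the prophenoloxidases of melanization. Of 14 haemocyte markers 11 fell and 1 rose, with a median of -0.63. Pxn, the gene of the matrix peroxidase peroxidasin, was at 270.4, 299, 317, 273 and 273 CPM and then 21.0, 54.7, 45.7, 60.9 and 26.7 CPM (log2 fold change -2.78 ± 0.27, adjusted p = 2.0e-05). The young libraries lay close together and the highest old one was far below them. Hml, the haemolectin gene that marks plasmatocytes, was at 1038, 1259, 1695, 1587 and 1239 CPM and then 396, 357, 543, 602 and 535 CPM (-1.49 ± 0.18, adjusted p = 0.00012), again with no overlap.

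Other haemocyte markers fell too, several phagocytic receptor genes among them. NimC1 went from 178 ± 22.1 to 90.2 ± 17.3 CPM (-0.98 ± 0.14, adjusted p = 0.00039), and eater, Sr-CI, NimB4, NimB5 and NimB1 fell by 0.46 to 0.93 on the log2 scale, each without overlap. NimC4, a receptor gene for dying cells, was at 9.42, 11.4, 10.2, 23.1 and 14.97 CPM and then 1.17, 2.26, 2.05, 1.38 and 3.56 CPM (-2.72 ± 0.39, adjusted p = 0.00037). The GATA factor gene srp and the haemocyte surface protein gene He, which overlaps NimB5, fell by 0.42 and 0.89. The exception was crq, a CD36-like receptor for dying cells, which rose from 372, 373, 342, 437 and 444 CPM to 741, 529, 647, 619 and 756 CPM (0.74 ± 0.11, adjusted p = 0.00044). The remaining 2 tested markers, drpr and NimC2, gave 0.03 ± 0.15 and -0.16 ± 0.24 (adjusted p = 0.92 and 0.72).

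Crystal cell transcripts were at a small fraction of their young level in 4 of the 5 old libraries. PPO1, a prophenoloxidase gene, was at 574, 680.3, 679, 582 and 681 CPM and then 10.5, 76.8, 7.96, 9.68 and 4.88 CPM (log2 fold change -4.86 ± 0.69, adjusted p = 0.00036). PPO2 was at 516, 597, 619, 557 and 636 CPM and then 12.5, 72.5, 8.06, 8.29 and 7.05 CPM (-4.76 ± 0.64, adjusted p = 0.00025), and lz, the Runx factor that specifies crystal cells, at 2.46, 4.23, 4.43, 3.19 and 3.35 CPM and then 0.221, 2.04, 0.406, 0.482 and 0.511 CPM (-2.27 ± 0.50, adjusted p = 0.0059). In all 3 genes old library 2 was the highest of its group and still below every young library. PPO1 overlaps Elk on the other strand. Of the 12 crystal cell and melanization genes 4 fell and 0 rose; the other gene that fell was yellow-f2, a dopachrome conversion gene (-1.08 ± 0.28, adjusted p = 0.015). Falls in this list became 2 without the libraries of high gut level. lectin-33A, a C-type lectin gene, fell as well, from 585 ± 150.2 to 108 ± 69.2 CPM (-2.43 ± 0.38, adjusted p = 0.00061).

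Mitochondrial energy genes fell together and by small amounts, with little spread between libraries. The 5 respiratory complexes pass electrons from NADH and succinate to oxygen and make ATP, and heart muscle is rich in all of them. Of the nuclear genes tested, 26 of 33 of complex I, 18 of 22 of complex II and the tricarboxylic acid (TCA) cycle, 7 of 11 of complex III and cytochrome c, 9 of 9 of complex IV and 12 of 13 of complex V fell. The median log2 fold changes were -0.32, -0.48, -0.32, -0.31 and -0.42. The 1 gene of these lists that rose was ND-AGGG of complex I (0.27 ± 0.09, adjusted p = 0.045), with overlapping groups. ND-B8, one of the falls of complex I, was listed at 0.342 ± 0.155 and 0.0292 ± 0.0491 CPM, unlike its abundant partners, and overlaps Gs1l.

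UQCR-C2, a core subunit of complex III, had the smallest p of all genes that fell. It was at 389.6, 427, 462, 436 and 406 CPM at 1 week and 231, 265, 247, 250.5 and 240.1 CPM at 5 weeks, 2 tight groups that did not meet (log2 fold change -0.78 ± 0.06, adjusted p = 4.6e-06). UQCR-C1, RFeSP, the Rieske iron-sulphur protein gene, and Cyt-c1 fell by 0.64, 0.52 and 0.52 on the log2 scale. In complex V ATPsynB was at 295, 311, 329.8, 318 and 283 CPM and then 182, 201, 193, 203 and 199.97 CPM (-0.65 ± 0.06, adjusted p = 1.3e-05), and the catalytic subunit genes blw and ATPsynbeta fell by 0.56 and 0.36. In complex I the Fe-S and flavoprotein subunit genes ND-75, ND-51 and ND-20 fell by 0.55, 0.51 and 0.47, and in complex IV COX4 and COX5A by 0.44 and 0.48.

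In the TCA cycle Acon, the aconitase gene, was at 717, 717, 808, 747 and 789 CPM and then 431, 533, 445, 435 and 422 CPM (-0.74 ± 0.07, adjusted p = 2.8e-05). SdhA, the flavoprotein of succinate dehydrogenase, fell by 0.62, CG11876, a pyruvate dehydrogenase subunit gene, by 0.65, and l(1)G0255, a fumarase gene, by 0.57 (adjusted p = 2.4e-05, 3.1e-05 and 0.00021). Sod2, the mitochondrial superoxide dismutase gene, fell from 102 ± 4.38 to 73.0 ± 6.545 CPM (-0.48 ± 0.07, adjusted p = 0.00040). CG9090, a mitochondrial phosphate carrier gene, was at 234, 248, 254, 250.3 and 297 CPM and then 120.2, 126, 121, 121 and 111 CPM (-1.10 ± 0.09, adjusted p = 9.1e-06).

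Genes of the mitochondrial ribosome rarely rose and fell about as often as all genes. A mixed list of import, dynamics and quality control genes moved both ways. Of 72 mitochondrial ribosomal protein genes 8 fell and 1 rose (11.1% and 1.39%), and their median of -0.12 turned to 0.07 with library totals. The falls became 0 with library totals, 1 in libraries 3 to 5 alone, 4 without young library 2 or 3, 3 without old library 1, 5 without old library 2 or 5 and 13 without old library 3. Of 21 import, dynamics and quality control genes 3 rose and 3 fell. The rises became 7 with library totals and 1 without the libraries of high gut level, and the falls 1 with library totals. The translocase genes Tim17b and Tim23 and the chaperonin gene Hsp60A rose by 0.41, 0.25 and 0.48. The kinase gene Pink1, the mitofusin gene Marf and CG4538, a ClpX-type protease subunit, fell by 0.35, 0.28 and 0.41.

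The energy lists kept negative medians with library totals, at -0.14, -0.30, -0.13, -0.13 and -0.23 in the order above, while their counts of falls dropped to 8, 14, 4, 2 and 8. In libraries 3 to 5 alone 12 complex V genes fell and in libraries 1 and 2 alone 0 did, at medians of -0.46 and -0.38. In libraries 3 to 5 alone the falls of the other complexes were 14 in complex I, 20 in complex II and the TCA cycle, 5 in complex III and 5 in complex IV. The 1-week Lamin C RNAi hearts, with no difference in age from the same young libraries, had 11, 7, 6, 0 and 4 members lower, in the same order of lists. Their medians there were -0.23, -0.26, -0.29, -0.21 and -0.18, and 1.54% of all genes were lower in that comparison.

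**Figure D2:**
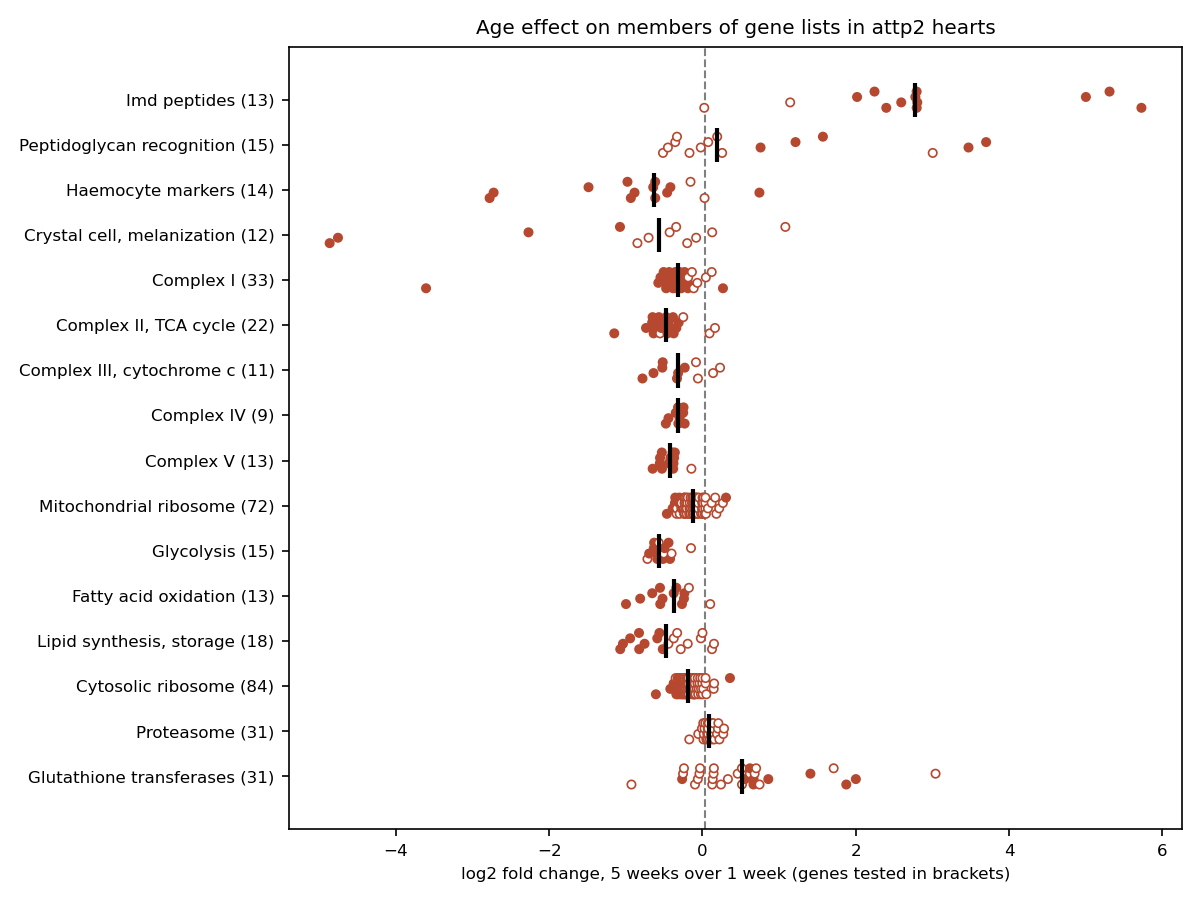
Log2 fold change, 5 weeks over 1 week, of every tested member of 16 gene lists (1 point a gene, filled where the adjusted p was under 0.05, black bar the list median, dashed line the median of 0.03 over all genes tested). The medians of the respiratory complexes, the TCA cycle and the fuel lists lie to the left of the line, that of the Imd peptides far to the right, and the proteasome near the line with no filled point; with library totals 4 proteasome genes pass and the median of the mitochondrial ribosome turns from -0.12 to 0.07.

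Pathways that feed the mitochondria fell as well. Of 15 glycolytic genes 10 fell and 0 rose (median -0.57). The number that fell became 6 without the libraries of high gut level. PyK, the pyruvate kinase gene, was at 721, 776, 783, 749 and 737 CPM and then 411, 600.0, 453, 505 and 356 CPM (-0.70 ± 0.12, adjusted p = 0.0015). Old library 2 was the highest of its group and still below all young libraries, and without it 12 of the genes fell. The same library was the highest old one for Ald, Gapdh1, Tpi, Pfk and Pgk, which fell by 0.44 to 0.63 on the log2 scale. Of 10 glycogen, trehalose and phosphagen genes 5 fell: Argk, the arginine kinase gene that buffers ATP in fly muscle, by 0.83, Tps1, the trehalose synthesis gene, by 0.95, and GlyP, GlyS and Treh, whose groups overlapped, by 0.62 to 0.85. This count became 2 with library totals, without the libraries of high gut level or without old library 5, 3 without young library 2 or without old library 1 or 3 and 8 without old library 2.

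Of 13 fatty acid oxidation genes 11 fell. The number became 5 with library totals and 6 without the libraries of high gut level. CG12262, a medium-chain acyl-CoA dehydrogenase gene, fell by 0.81, colt, the carnitine carrier gene, by 0.66, and Thiolase by 0.55. The list also held CG5044, a 3-hydroxyisobutyryl-CoA hydrolase gene, whose enzyme belongs to valine breakdown. CG5044 was at 259, 319, 419, 410.3 and 347 CPM and then 205.3, 234, 160.1, 137 and 142 CPM (-0.998 ± 0.19, adjusted p = 0.0023). Of 18 lipid synthesis and storage genes 9 fell. ACC, which commits acetyl-CoA to fatty acid synthesis, was at 3206, 3044, 4262, 3766 and 3089 CPM and then 1574, 2325, 1254, 1799 and 1304 CPM (-1.07 ± 0.19, adjusted p = 0.0016). FASN1, the fatty acid synthase gene, fell by 1.04, AcCoAS by 0.94 and Lsd-1, a perilipin gene of lipid droplets, by 0.83 (adjusted p = 0.0068, 0.0027 and 0.0020). Most of these lipid genes are also strong in fat body, and the yolk protein gene Yp1, a fat body product of females, was at 33986, 28333, 28263, 23920.2 and 13845 CPM and 6017, 31891, 7066, 15661 and 5463 CPM (-0.96 ± 0.45, adjusted p = 0.15), with old library 2 close to the young ones. Of 13 fat body and oenocyte markers 4 fell and 0 rose, and their summed level was 197930 to 275670 CPM at 1 week and 147091 to 210079 CPM at 5 weeks, with Fbp1 and Fbp2 close to 0 in most libraries. Falls among these markers became 2 without the libraries of high gut level, without young library 3 or 4 or without old library 5 and 7 without old library 2. The part of fat body RNA in the lipid and glycolytic results was not tested.

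Nutrient signalling moved by small amounts. Of 26 insulin, TOR and adipokinetic hormone genes 6 fell and 2 rose. The number of falls became 1 with library totals and 3 in libraries 3 to 5 alone. foxo, the transcription factor restrained by insulin signalling, was at 89.8, 85.5, 105, 90.9 and 87.6 CPM and then 71.2, 68.4, 57.5, 66.2 and 67.9 CPM (-0.47 ± 0.07, adjusted p = 0.00066), with no overlap. Sesn, rictor and raptor, a TOR inhibitor and subunits of the 2 TOR complexes, fell by 0.48, 0.42 and 0.31.

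Sarcomere genes of the thick filament, thin filament and Z-disc fell. Myosin thick filaments slide along actin thin filaments that are anchored in the Z-disc. Of 7 thick filament genes 5 fell, of 13 thin filament genes 5, and of 14 Z-disc genes 6, and none of them rose, with medians of -0.57, -0.30 and -0.24. Mhc, the muscle myosin heavy chain gene, was at 2283, 2330.3, 2603, 2464 and 3342 CPM and then 1119, 1438, 1218, 1264 and 1253 CPM (log2 fold change -1.05 ± 0.11, adjusted p = 4.7e-05). Every old library lay below every young one, and the old libraries lay close together. Unc-89, the obscurin gene of the M-line, fell by 1.004, Prm, paramyosin, by 0.59, and the light chain genes Mlc1 and Mlc2 by 0.57 and 0.47. TpnC47D, a troponin C gene, was at 59.3, 71.6, 73.5, 78.6 and 87.4 CPM and then 18.5, 26.5, 22.9, 35.04 and 15.5 CPM (-1.64 ± 0.19, adjusted p = 6.8e-05), and TpnC25D, which overlaps tkv, fell by 0.89. The tropomyosin genes Tm1 and Tm2 fell by 0.37 and 0.41, and the Z-disc genes Mlp84B, Mlp60A, Zasp52, Zasp66 and Actn by 0.46 to 0.83.

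Markers of other muscle were present too. Of 7 markers of body wall and flight muscle 1 fell, the actin-binding WD-repeat protein gene flr (-0.40 ± 0.11, adjusted p = 0.017), and the summed level of the list was 450.1 to 574 CPM at 1 week and 357 to 443 CPM at 5 weeks. The part of each muscle type in the sarcomere result was not tested. With library totals 4, 2 and 4 genes of the 3 sarcomere lists fell, with medians of -0.39, -0.12 and -0.06. Under that scaling 3 Z-disc genes rose, and in libraries 3 to 5 alone 3 thin filament genes fell.

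Calcium and ion channel genes fell in part. Calcium enters the cardiomyocyte through voltage-gated channels, is released from the sarcoplasmic reticulum through the ryanodine receptor and is pumped back by SERCA. Of 35 channel, pump and gap junction genes 11 fell and 3 rose. Falls became 6 with library totals and 7 without the libraries of high gut level or in libraries 3 to 5 alone, and the rises 1 in libraries 3 to 5 alone, without young library 1, 2 or 4 or without old library 1 or 5. RyR, the ryanodine receptor gene, was at 173, 172, 198, 189 and 239 CPM and then 95.1, 139, 109, 98.6 and 117 CPM (-0.79 ± 0.12, adjusted p = 0.00042). SERCA was at 1386, 1367, 1491, 1479.8 and 1565 CPM and then 990.4, 1069, 1030.1, 1041 and 1020.0 CPM (-0.50 ± 0.08, adjusted p = 0.00064). Neither pair of groups overlapped. The calcium channel genes Ca-alpha1T and Ca-beta fell by 0.72 and 0.36 without overlap, and Ca-alpha1D, the L-type channel gene, by 0.45 with overlap. Among potassium channels Ork1, an open rectifier that sets heart rate, was at 65.1, 44.3, 64.3, 63.6 and 45.6 CPM and then 14.9, 39.4, 17.1, 27.6 and 14.98 CPM (-1.31 ± 0.30, adjusted p = 0.0073), with old library 2 nearest to the young ones. The ERG-type channel gene sei, which overlaps gammaSnap1, rose, from 9.04, 9.12, 6.46, 6.99 and 6.82 CPM to 12.8, 10.4, 13.3, 15.3 and 15.6 CPM (0.81 ± 0.14, adjusted p = 0.0012), and nrv3, a sodium pump beta subunit gene, rose by 0.58 while the alpha subunit gene Atpalpha fell by 0.42.

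**Figure D3:**
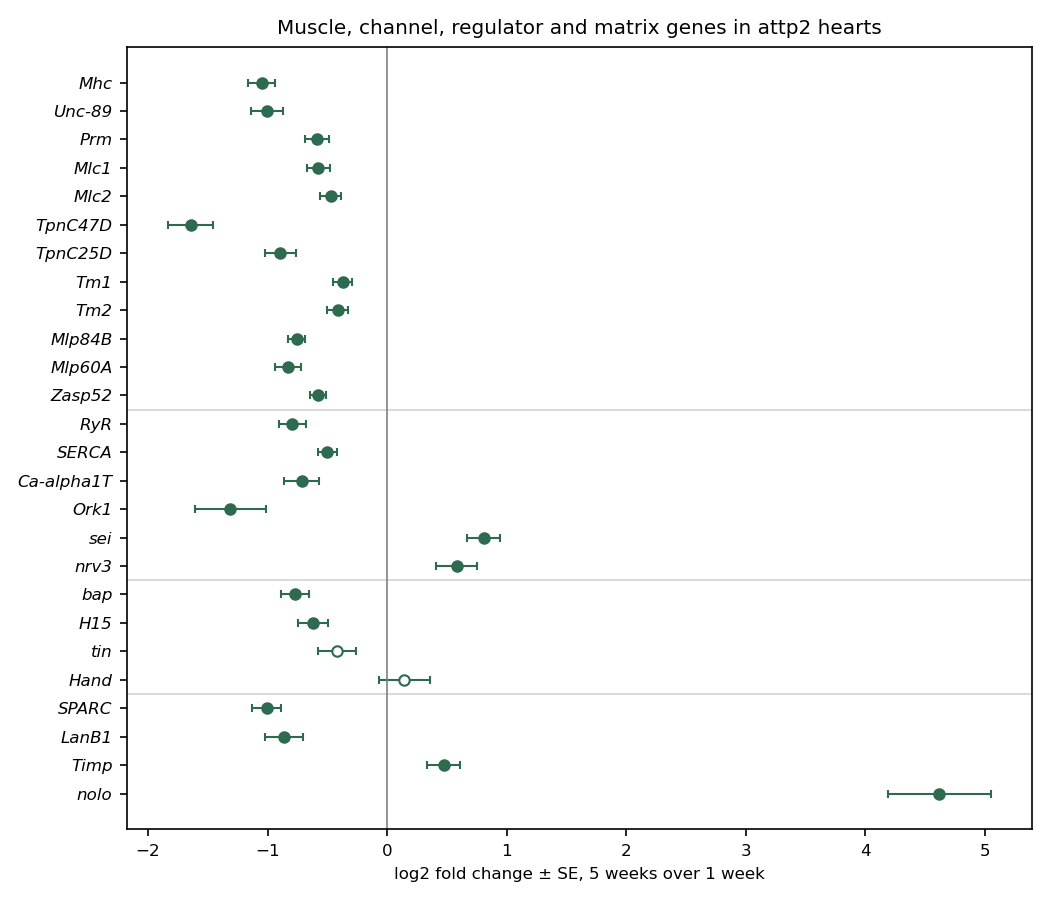
Log2 fold change ± SE, 5 weeks over 1 week, for 26 sarcomere, calcium, channel, heart regulator and matrix genes (points, filled where the adjusted p was under 0.05). sei, nrv3, Timp and nolo lie to the right of 0, and Hand and tin are the 2 genes shown that did not pass.

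Some cardiac transcription factor genes fell. Of 18 regulators 4 fell (22.2%) and 0 rose. The falls became 2 in libraries 3 to 5 alone. bap, an NK homeobox gene next to tin, was at 12.3, 12.4, 13.5, 13.4 and 12.4 CPM and then 7.95, 8.82, 6.72, 7.07 and 6.93 CPM (-0.77 ± 0.12, adjusted p = 0.00053), and H15, a T-box gene, at 58.1, 52.4, 69.2, 64.3 and 87.8 CPM and then 41.3, 49.2, 42.8, 36.6 and 46.1 CPM (-0.62 ± 0.13, adjusted p = 0.0038). Both were lower in all old libraries. lbl and Doc3 fell by 1.02 and 0.69, while tin and Hand gave -0.42 ± 0.16 and 0.14 ± 0.21 (adjusted p = 0.083 and 0.70).

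Several genes of the extracellular matrix that ensheathes the heart were lower in old libraries. Of 23 matrix and adhesion genes 9 fell and 2 rose. SPARC, a collagen-binding glycoprotein gene, was at 695, 691, 571, 629 and 499.9 CPM and then 280.1, 343, 266, 323 and 324 CPM (-1.01 ± 0.12, adjusted p = 0.00012). Ppn, the papilin gene, fell by 0.98, the laminin genes LanB1 and LanA by 0.86 and 0.72, the collagen IV genes vkg and Col4a1 by 0.59 and 0.53, Mp, a multiplexin collagen gene of the heart lumen, by 0.88, and the integrin gene if by 0.66. Haemocytes make part of this matrix, and the summed level of the 15 haemocyte markers was 2733 to 3563 CPM at 1 week and 1684 to 2238 CPM at 5 weeks, with NimC3 at 0 in at least 1 library of each age. The part of blood cell RNA in the matrix result was not tested. Timp, the metalloproteinase inhibitor gene, rose by 0.47 (adjusted p = 0.030). nolo, an ADAMTS-like matrix protein gene, was at 0.834, 0.821, 0.402, 0.932 and 1.41 CPM at 1 week and 31.6, 19.0, 16.1, 19.4 and 22.5 CPM at 5 weeks. It was low in every young library and over 10 CPM in every old one (log2 fold change 4.62 ± 0.43, adjusted p = 1.7e-05).

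Nuclear envelope genes moved by small amounts, and few chromatin genes passed. Of 10 lamina and envelope genes Msp300 and klar, which link nuclei to the cytoskeleton, fell by 0.47 and 0.40 and bocks rose by 0.31. LamC was at 186, 222, 138, 148 and 163 CPM and then 148, 185, 118, 122 and 127 CPM (-0.29 ± 0.20, adjusted p = 0.36), with overlapping groups. Of 27 heterochromatin and Polycomb genes 1 rose and 2 fell. Of 25 nucleoporin genes 1 fell, Nup44A (-0.68 ± 0.11, adjusted p = 0.00077), which overlaps ACC on the other strand, so that the reads of the 2 genes cannot be told apart without the strand setting.

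Single DNA replication genes rose by large amounts, while most members of their list did not pass. Of 23 replication and repair genes 3 rose (13.0%, near the 9.6% of all genes tested) and 0 fell. The other 20 did not pass, among them PCNA at 1.51 and Mcm5 at -0.23 (adjusted p = 0.39 and 0.83). DNApol-delta, the catalytic subunit gene of DNA polymerase delta on chromosome 3L from 15984322 to 15987815, was at 5.05, 5.52, 5.41, 5.73 and 7.70 CPM and then 46.9, 65.9, 85.1, 38.2 and 26.0 CPM (log2 fold change 3.16 ± 0.36, adjusted p = 7.0e-05). The lowest old library was well above the highest young one; the gene overlaps Arl1 on the other strand. RnrL, the large ribonucleotide reductase subunit gene, rose from 8.77 ± 1.10 to 28.0 ± 4.13 CPM (1.67 ± 0.33, adjusted p = 0.0033) and Mcm2, a replicative helicase gene, from 3.69 ± 0.782 to 11.6 ± 3.43 CPM (1.66 ± 0.51, adjusted p = 0.034). RpA-70, outside that list, encodes the large subunit of the complex that coats single-stranded DNA and was at 69.8, 70.2, 75.5, 83.3 and 81.5 CPM and then 139, 127, 124, 136 and 125 CPM (0.77 ± 0.06, adjusted p = 7.8e-06). In the small RNA list AGO2 and Dcr-2, the Argonaute and Dicer genes of antiviral RNA interference, rose by 0.53 and 0.35.

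Chaperone and protein turnover genes moved in few cases. Of 5 inducible Hsp70-class genes 0 passed with edgeR, 0 at an unadjusted p and 0 with DESeq2. Single libraries differed widely. Summed over the 7 genes of that list, the level was 533, 343, 103, 66.9 and 94.4 CPM at 1 week. At 5 weeks it was 43.6, 547, 41.9, 69.0 and 87.5 CPM. Without old library 2 the median of the list moved from -0.14 to -1.74 and 1 gene fell. Of 6 small heat shock genes l(2)efl, an alpha-crystallin type gene that overlaps St3, fell from 193 ± 23.2 to 94.9 ± 18.1 CPM (-1.03 ± 0.14, adjusted p = 0.00021). Of 18 further chaperone genes Hop, an Hsp70-Hsp90 organizing protein gene, rose by 0.67 and Hsc70-1 and Hsc70-2 fell by 1.504 and 1.20. crc, the fly ATF4 gene, rose by 0.42 as 1 of 11 genes of the endoplasmic reticulum stress list. None of 31 proteasome genes passed in either direction with edgeR or with DESeq2, and 0 had an unadjusted p under 0.05 (median 0.08); with library totals 4 rose (median 0.28).

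Of 22 autophagy genes 3 rose and 1 fell. The rises became 6 with library totals and 1 in libraries 3 to 5 alone. ref(2)P, the p62 cargo receptor gene, was at 2383, 2991, 2817, 2989 and 2834 CPM and then 4362, 3494, 4765, 5219 and 4942 CPM (0.70 ± 0.16, adjusted p = 0.0070), and Atg8a, the membrane tag of autophagosomes, rose by 0.36 and Atg5 by 0.54, while Atg9 fell by 0.31. The lysosomal membrane gene Lamp1 and the proton pump genes VhaM9.7-b and Vha44 rose by 0.40, 0.72 and 0.36 among 28 lysosomal genes (10.7% higher), and Vha68-1, another proton pump gene, fell by 0.39. Rises in that list became 9 with library totals, 0 in libraries 3 to 5 alone, 6 without young library 3 and 5 without old library 4.

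Among detoxification genes, 8 of 31 glutathione transferase genes rose (25.8%) and 1 fell, with a median of 0.51. GstE1 was at 122, 114, 56.6, 66.7 and 91.6 CPM and then 264, 283, 206, 251 and 193 CPM (1.41 ± 0.23, adjusted p = 0.00077), and GstT1, GstO3 and GstE11 rose by 0.62, 0.66 and 0.86. GstD1, GstD5 and GstD6, which have near-identical neighbours, rose by 0.56, 1.88 and 2.00. Of 71 cytochrome P450 genes 11 rose and 9 fell. Without the libraries of high gut level the balance turned, with 12 falls, and the number of rises became 4 without the libraries of high gut level, 5 in libraries 3 to 5 alone, 6 without young library 4 or without old library 4 and 7 without young library 5 or without old library 5. Cyp4p2 had, with CG5830, the smallest p of all genes. It was at 61.9, 66.4, 65.5, 68.5 and 79.1 CPM and then 331, 296, 288, 344 and 393 CPM (2.27 ± 0.12, adjusted p = 1.2e-07), and it overlaps hig on the other strand. Cyp4e1 fell, from 118 ± 21.2 to 23.0 ± 8.62 CPM (-2.36 ± 0.34, adjusted p = 0.00041). The ferritin genes Fer1HCH and Fer2LCH, whose subunits form the iron store, rose by 0.76 and 0.78, at 5059 ± 900.0 and 6589 ± 1311 CPM in old hearts. They overlap each other on opposite strands. Jafrac1, a peroxiredoxin gene, rose by 0.46.

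Translation genes changed in both directions. Of 84 cytosolic ribosomal protein genes 21 fell and 1 rose (median -0.19), but the count of falls became 1 with library totals, 2 without the libraries of high gut level, 11 without young library 1 or without old library 3 or 4, 10 without young library 2 or without old library 5, 13 without young library 4 and 38 without old library 2. RpL22 fell from 640.2 ± 47.7 to 420.1 ± 41.2 CPM (-0.61 ± 0.10, adjusted p = 0.00086), and RpL38 rose by 0.36. Among 33 tRNA synthetase genes the 3 that rose, TrpRS, GlyRS and AspRS, are named without a mitochondrial suffix and rose by 0.41 to 0.63 on the log2 scale. The 4 that fell, AlaRS-m, TrpRS-m, SerRS-m and ProRS-m, all serve mitochondria and fell by 0.26 to 0.45. These shares of 9.09% higher and 12.1% lower were near the 9.6% and 10.5% of all genes tested. The other mitochondrial members did not pass and went both ways, such as CysRS-m at 0.14 and MetRS-m at -0.34. Rises in this list became 11 with library totals and 1 without the libraries of high gut level, and the falls 0 with library totals or in libraries 3 to 5 alone and 2 without young library 1, 2 or 3 or without old library 1 or 5. eIF6, a factor that keeps the large ribosomal subunit free, rose from 20.8 ± 1.72 to 40.4 ± 6.08 CPM (0.96 ± 0.14, adjusted p = 0.00049), but it overlaps ytr on the same strand.

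Signalling genes with large shifts were few. N, the Notch receptor gene, was at 17.4, 16.2, 25.2, 23.9 and 21.5 CPM and then 3.21, 6.543, 7.03, 5.37 and 4.92 CPM (-1.94 ± 0.26, adjusted p = 0.00020), and E(spl)mbeta-HLH, a Notch target that encodes a repressor, was at 14.52, 15.2, 13.0, 12.5 and 9.61 CPM and then 2.11, 3.12, 5.54, 3.10 and 2.54 CPM (-1.98 ± 0.26, adjusted p = 0.00018). The groups were separate in both, and these were the 2 members of the Notch list of 12 that passed. kek1, an inhibitor of the EGF receptor and itself induced by it, was at 21.9, 26.7, 14.03, 13.5 and 17.6 CPM and then 2.82, 4.28, 2.45, 2.33 and 3.02 CPM (-2.65 ± 0.27, adjusted p = 2.5e-05). In the same list rl, the MAP kinase gene, vn, a ligand gene, Dsor1 and kek4 rose, by 0.44, 0.65, 0.28 and 1.88. Those rises became 7 with library totals and 1 in libraries 3 to 5 alone or without old library 5. brk, the repressor of Dpp targets, which overlaps CG1677, was at 14.8, 19.2, 19.9, 22.6 and 17.5 CPM and then 3.57, 6.68, 9.75, 7.83 and 2.85 CPM (-1.62 ± 0.30, adjusted p = 0.0021). Toll-7, a Toll family receptor gene, was at 15.2, 17.3, 18.5, 21.5 and 18.03 CPM and then 6.78, 7.67, 7.51, 7.50 and 6.10 CPM (-1.35 ± 0.11, adjusted p = 7.8e-06). Of the hormone list the juvenile hormone epoxide hydrolase gene Jheh3 rose by 1.28 and the nuclear receptor gene ftz-f1 by 0.57, while Hr4, gce and Jheh2 fell by 0.35 to 1.42. Hormone list falls became 1 with library totals or without the libraries of high gut level. Klf15, a nephrocyte transcription factor gene, rose by 1.32 as the 1 of 9 nephrocyte markers to pass.

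Other leading rises were in genes of several kinds, many with no role named here. Pal2, an enzyme of peptide amidation, rose from 19.2 ± 4.76 to 137 ± 53.9 CPM (2.83 ± 0.38, adjusted p = 0.00025), Nep2, a neprilysin peptidase gene, from 3.08 ± 0.643 to 24.6 ± 8.95 CPM (2.99 ± 0.25, adjusted p = 9.1e-06), and gogo, an axon guidance receptor gene, from 11.0 ± 2.29 to 45.9 ± 4.80 CPM (2.06 ± 0.16, adjusted p = 6.0e-06). CG33970, a predicted ABC transporter gene, was at 1.05, 1.31, 2.29, 2.63 and 1.69 CPM and then 68.7, 44.3, 81.4, 90.8 and 90.7 CPM (5.39 ± 0.47, adjusted p = 9.5e-06). CG15239 was at 0.0795, 0.192, 0.0252, 0.420 and 0.198 CPM and then 16.7, 12.7, 3.79, 14.9 and 20.2 CPM (6.21 ± 0.95, adjusted p = 0.00057). Both were low in every young library. CG42246, CG32259, CR43264, CG10814 and CG43920 rose by 3.73 to 4.64 on the log2 scale. CG44774 rose from 57.2 ± 5.88 to 351 ± 79.0 CPM and CG10638, CG2909 and CG12868 by 1.17, 1.39 and 1.68.

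Among the largest falls, CG34327 was at 4.51, 4.11, 7.44, 5.66 and 8.15 CPM and then 0, 0.0337, 0, 0.313 and 0 CPM, with no count in 3 old libraries. ninaD, a CD36-like carotenoid receptor gene, was at 17.8, 19.8, 24.6, 21.5 and 21.0 CPM and then 2.70, 2.60, 3.92, 4.51 and 2.78 CPM (-2.66 ± 0.32, adjusted p = 9.7e-05). CG13091, a predicted fatty acyl-CoA reductase gene and the most abundant of these, was at 2908, 3888, 1796, 1795 and 1603 CPM and then 152, 1186, 137, 133 and 78.6 CPM (-2.83 ± 0.71, adjusted p = 0.013); old library 2 was several times the other old ones and still the groups did not meet. The cuticle protein genes Cpr49Ae and Cpr49Ab fell by 3.68 and 2.52 in a list in which 9 of 28 fell and 4 rose, the latter with the neighbour Cpr49Ac (2.33 ± 0.54). Falls of cuticle genes became 2 in libraries 3 to 5 alone and 5 without young library 2 or without old library 1, and the rises 0 in libraries 3 to 5 alone. CG10738 and CG14661 fell by 2.43 and 2.39, and SmydA-9, CG5177 and CG5023, which have less spread, by 1.22, 1.01 and 0.82.

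The other lists held few calls. Of 21 lipoprotein and sterol genes 6 fell, among them the lipophorin receptor gene LpR1 (-0.77 ± 0.22, adjusted p = 0.021), and 2 rose. The falls there became 2 in libraries 3 to 5 alone. Of 21 translation factor genes 3 rose and 4 fell, of 21 ribosome biogenesis genes 1 and 1, of 16 redox genes 1 and 1, and of 15 odorant binding protein genes 1 and 4. Falls of translation factor genes became 0 with library totals, without the libraries of high gut level, without young library 1, 2, 3 or 4 or without old library 3, 4 or 5 and 1 without young library 5 or without old library 1, their rises 5 with library totals, and falls of odorant binding protein genes 1 in libraries 3 to 5 alone. In the clock list of 10 genes cry, the blue light receptor gene, fell (-0.65 ± 0.15, adjusted p = 0.0077), and 1 rose. Of 8 secreted fat body protein genes, the yolk protein genes among them, 0 passed in either direction with edgeR, 2 were lower with no adjustment of p and DESeq2 called 1 (median -0.78). Of 7 Malpighian tubule markers 1 fell and 0 rose with edgeR, while 1 rose with DESeq2 and 1 of 4 without the libraries of high gut level, and of 23 tested gut markers 0 rose and 0 fell (1 lower at an unadjusted p under 0.05, 0 with DESeq2). Arc1, a capsid-forming gene related to retrotransposon Gag that was chosen after its values were seen, was at 806, 901, 483, 695 and 760.3 CPM and then 3608, 3685, 2633, 3018 and 2190.0 CPM (2.05 ± 0.19, adjusted p = 1.7e-05), with separate groups.

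The same ages of w1118 hearts give a comparison that shares no library with the one above. Of 1979 genes called in attp2 and tested in w1118, 1676 (84.7%) had a fold change of the same sign there, 402 also passed in the same direction and 7 in the opposite. w1118 had 502 rises (5.21%) and 356 falls (3.7%) in all. Across genes, which are not independent replicates, Pearson's r of the 2 sets of log2 fold changes was 0.555 over the 9444 genes tested in both. The genes that rose in attp2 had a median of 0.56 there and 0.32 in w1118, and those that fell -0.56 and -0.29; the genes were picked by their attp2 values, so the larger medians there are no sign of a larger change.

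Many of the leading genes also moved in w1118. CG33970 rose by 5.13 in w1118 (adjusted p = 4.1e-06), Pal2 by 3.16 and nolo by 3.20, Mhc fell by 1.10, Pxn by 2.53, PPO1 by 3.56 and E(spl)mbeta-HLH by 2.69. Of the Imd peptides 3 of 13 passed in w1118 (median 1.06), of complex I 0 of 33 (median -0.23), of complex V 0 of 13 (median -0.28) and of glycolysis 0 of 15 (median -0.16). At an unadjusted p under 0.05 15, 5 and 2 genes of the last 3 lists were lower in w1118. None of the genes of these 4 lists passed the test of the difference between strains; at an unadjusted p 5 Imd peptide genes had an age effect higher and 6 glycolytic genes one lower in attp2.

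That test, an interaction over 18 control libraries, found 29 genes (0.279%) with an age effect higher in attp2 and 50 (0.481%) with one lower in attp2, of 10387 tested. The total of 79 (0.761%) rested on single libraries. Without attp2 1-week library 3 or 4 it was 44 or 17, and without attp2 5-week library 1, 3 or 5 it was 45, 42 or 19. Without w1118 1-week library 1, 2, 3 or 4 it was 17, 11, 16 or 271, and without w1118 5-week library 1, 3 or 4 it was 47, 119 or 32. CG4291, a predicted spliceosomal protein gene on chromosome 2L from 851251 to 852730, had the smallest p. Levels of the 2 strains were scaled separately. In attp2 it was at 37.7, 39.5, 33.3, 39.8 and 39.6 CPM and then 163, 171, 137, 172 and 194 CPM, and in w1118 at 6.33, 9.24, 5.39 and 7.72 CPM and then 6.96, 7.52, 7.19 and 7.49 CPM. The old attp2 libraries were all far above the young ones (log2 fold change 2.14 ± 0.20) while the w1118 groups overlapped (0.03 ± 0.17), and the difference of the age effects was 2.14 (adjusted p = 2.6e-05).

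DNApol-delta was at 5.02, 6.64, 5.90 and 5.22 CPM and then 5.41, 4.99, 5.12 and 5.23 CPM in w1118 (-0.14 ± 0.15), and the age effects differed by 3.31 (adjusted p = 0.00033). CG5830, a predicted phosphatase gene, was at 81.2, 70.1, 77.4, 83.7 and 91.9 CPM and then 209, 193, 202, 212 and 231 CPM in attp2 (1.37 ± 0.07, adjusted p = 1.2e-07) and at 48.0, 44.7, 55.8 and 37.7 CPM and then 41.9, 48.3, 53.2 and 64.4 CPM in w1118, a difference of 1.24 (adjusted p = 0.0046). The 2 genes are near neighbours on chromosome 3L, where CG5830 runs from 15992669 to 16004736. Hip14, which lies between them, and Arl1, which overlaps the end of DNApol-delta, gave 0.08 ± 0.08 and 0.00 ± 0.06 in attp2, and neither passed; this neighbourhood was chosen after its values were seen.

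CG7409, a small heat shock type gene, rose by 1.58 in attp2 and fell by 2.09 in w1118 (difference 3.70, adjusted p = 0.0041), and bor gave 0.20 ± 0.11 and -0.69 ± 0.10 (difference 0.92, adjusted p = 0.0053). In the other direction CG10026, CG15120 and Kaz1-ORFB fell in attp2 by 1.29, 1.21 and 1.002 and rose in w1118 by 0.62, 1.43 and 0.72. CG31313 and CG42795 did not pass in attp2 (0.01 ± 0.12 and 0.48 ± 0.34, adjusted p = 0.98 and 0.37) and rose in w1118 by 1.77 and 3.38. Cyp4p2 was among the remaining differences, with 0.32 ± 0.38 in w1118 (difference 1.97, adjusted p = 0.030), as were CG44774 at 1.47 and the tRNA synthetase genes AlaRS, ValRS and IleRS at 0.58, 0.82 and 0.51, which were chosen after their values were seen.

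**Figure D4:**
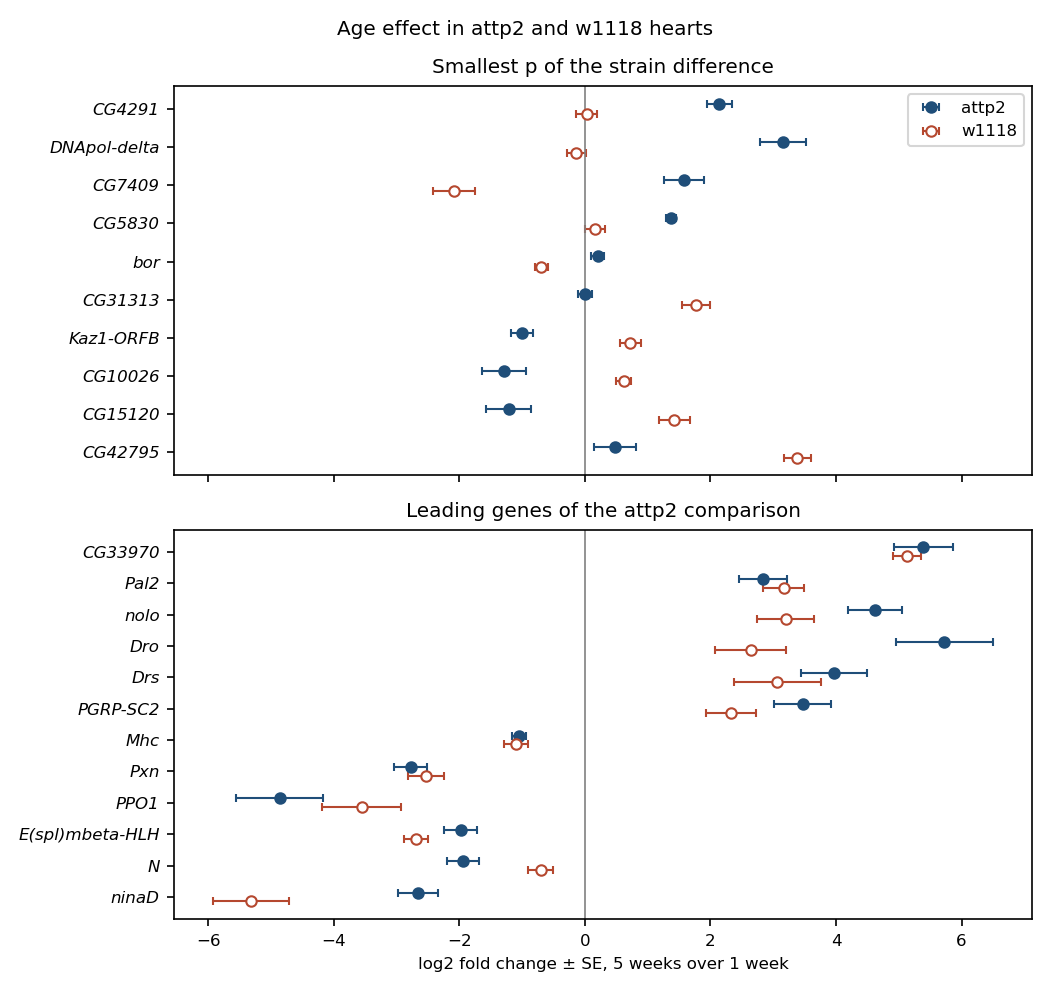
Log2 fold change ± SE, 5 weeks over 1 week, in attp2 (filled) and w1118 (open) for the 5 genes in each direction with the smallest p in the test of the strain difference (upper panel) and for 12 genes that lead the attp2 comparison (lower panel). In the upper panel the 2 symbols are apart for every gene, and in the lower panel both lie on the same side of 0.

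The hearts labelled Lamin C RNAi were compared with the same young attp2 libraries that serve as reference here, so values for the 2 comparisons share those libraries and are given side by side with no measure of their likeness. 87 genes (0.866%) were higher and 155 (1.54%) lower with RNAi. ninaD was at a mean of 3.39 ± 1.95 CPM with RNAi, at 20.9 ± 2.53 CPM in young and at 3.30 ± 0.862 CPM in old attp2. brk was at 7.22 ± 1.94, 18.8 ± 2.90 and 6.14 ± 2.90 CPM, bap at 8.14 ± 1.44, 12.8 ± 0.587 and 7.50 ± 0.873 CPM, and Hsc70-1 at 3.68 ± 0.400, 9.55 ± 1.14 and 3.37 ± 1.01 CPM in the same order, and each was lower than young attp2 in both tests. NimC1 and TpnC47D went opposite ways, with 1.13 and 0.85 under RNAi (adjusted p = 0.0010 and 0.025) against -0.98 and -1.64 with age. CG4291, which rose with age, was at 6.87, 10.1, 16.5, 7.70 and 8.07 CPM under RNAi, below every young attp2 library (-1.95, adjusted p = 0.00018).

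Where a gene lies was also related to how it changed. This was noticed after the values were seen and is described without a test. The DNA around the centromeres and most of chromosome 4 is packed as heterochromatin, and genes there are transcribed within repeat-rich sequence. On each of the 5 large arms the tested genes were ranked from the centromere end of the annotation. Of the 150 genes made up of the 30 nearest on each arm, 47 rose (31.3%) and 9 fell, with a median log2 fold change of 0.30, against 769 rises (9.15%) and 897 falls of 8400 genes beyond rank 300, with a median of 0.03. For ranks 31 to 60 the counts were 29 and 11 (median 0.12) and for ranks 61 to 90 12 and 15 (median 0.03). By arm, the 30 nearest genes gave 18 rises and 0 falls on 2R, 13 and 0 on 3L, 8 and 1 on 2L, 6 and 4 on 3R and 2 and 4 on X. Chromosome 4 had 31 rises and 4 falls of 85 genes (36.5% higher, median 0.32).

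Genes with several kinds of role stood behind these counts. On 2R near the centromere rl rose by 0.44, Nipped-B, the cohesin loader gene, by 0.58 and RNASEK by 0.81; on 3L Dbp80, an RNA helicase gene, by 0.77, vtd, a cohesin subunit gene, by 0.49 and Set1, a histone H3 methyltransferase gene, by 0.58; and on 2L lt, a vesicle sorting gene, by 0.57. On chromosome 4 Syt7, a synaptotagmin gene, was at 1.79, 1.55, 1.03, 1.75 and 1.48 CPM and then 11.7, 7.76, 7.01, 9.76 and 14.3 CPM (2.73 ± 0.25, adjusted p = 1.6e-05). On the same chromosome pho, a Polycomb recruiter gene, and PIP4K, a lipid kinase gene, rose by 0.76 and 0.72, while ATPsynbeta fell with most of its complex. All of the genes in this paragraph but rl and ATPsynbeta were chosen after their values were seen.

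The nearest genes kept a positive median under the other settings tried and in w1118. With library totals the 150 genes gave 61 rises and 4 falls, without the libraries of high gut level 40 and 4, and in libraries 3 to 5 alone 27 and 7; the medians were 0.49, 0.25 and 0.28, and in libraries 1 and 2 alone, with 3 rises and 2 falls, 0.27. In w1118 the 150 nearest genes gave 9 rises and 1 fall with a median of 0.16, and chromosome 4 7 and 1 of 86 with a median of 0.11. In the test of the strain difference 2 and 0 of the 150 passed in each direction, and on chromosome 4 0 and 0. The 1-week Lamin C RNAi hearts, compared with the same young libraries, gave 5 rises and 1 fall among the 150 genes with a median of 0.17, and 5 and 3 on chromosome 4 with a median of 0.16, with no difference in age.

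Gene length went with the direction of change too. Genes whose annotated span was at most 1 kb had 154 rises and 79 falls of 1263 (median log2 fold change 0.17), those of 4 to 8 kb 134 and 181 of 1611 (median -0.01), those of 16 to 32 kb 39 and 106 of 597 (median -0.13) and those over 32 kb 40 and 93 of 546 (median -0.13). With library totals the medians of the shortest and longest classes were 0.35 and 0.05, so the longest genes then had a positive median while the shortest stayed above them. In w1118 they were 0.15 and -0.06, and in the comparison with Lamin C RNAi 0.03 and 0.08. The span covers introns and is not the length of the transcript.

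**Figure D5:**
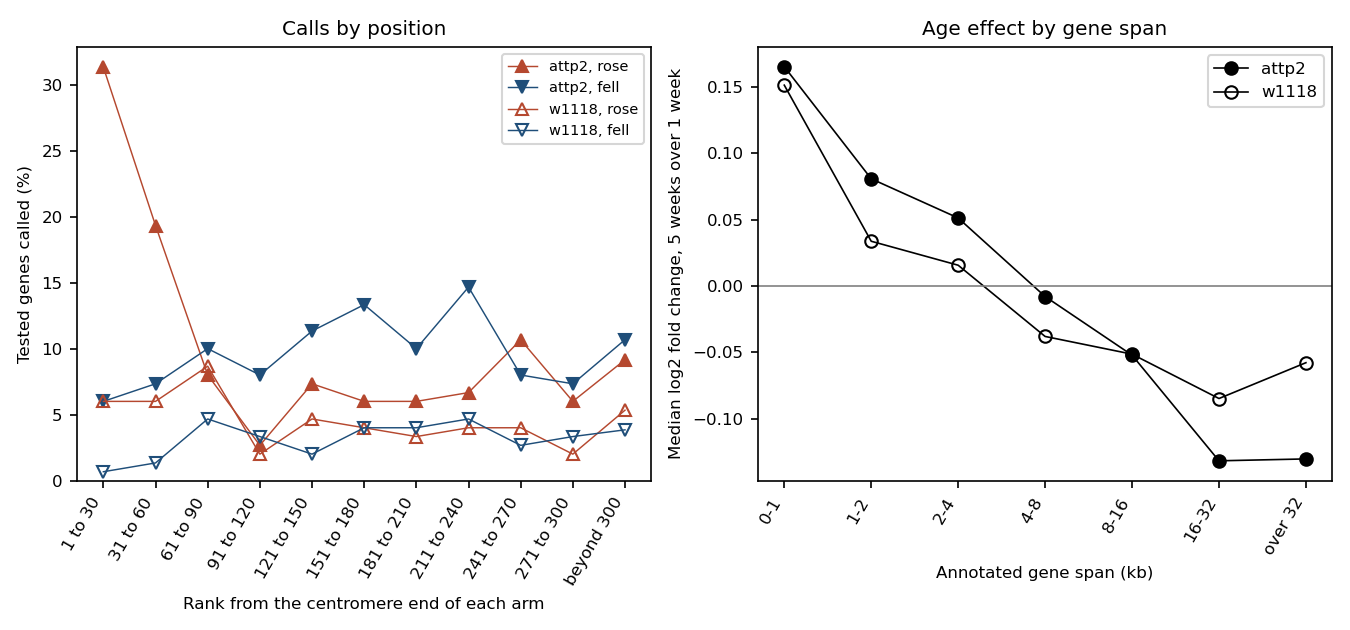
Share of tested genes that rose (upward triangles) or fell (downward triangles) with age, in percent, by rank from the centromere end in groups of 30 genes per arm (left) and median log2 fold change by annotated gene span in kb (right), for attp2 (filled) and w1118 (open). In attp2 31.3% of the nearest genes rose against 9.15% beyond rank 300, and the medians run from 0.17 for the shortest genes to -0.13 for the longest; with library totals these 2 medians are 0.35 and 0.05.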

How the data were processed

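Hearts were dissected, total RNA was extracted and stranded mRNA libraries were made, per the labels' protocols. The authors deposited raw counts per gene symbol and named cutadapt, STAR, DESeq2 and the build dm6, per the submitters' processing notes, without roles; no source used here gives their versions, the read counter or its strand setting. The deposited table of normalised values was not used.

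Counts of the 15 libraries of the attp2 table, in 3 groups that share 1 estimate of the spread, were filtered with filterByExpr, scaled with TMM and tested with edgeR 4.0.16 (limma 3.58.1, R 4.3.3, quasi-likelihood, two-sided, Benjamini-Hochberg over all genes tested, threshold 0.05) for 5 against 1 week. SE is the log2 fold change over the root of the F statistic. The strain difference was an interaction over the 18 control libraries and the genes in both tables. Strain cannot be told apart from count table, so levels were not tested between strains. No pair of libraries in a group agreed within counting noise. On simulated counts with 200 genes changed the age test recovered 52.0% of 2-fold and 82.3% of 4-fold changes among 9908 genes.

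The comparison and the gene lists were chosen with earlier results of these data known. Named genes were called genes with separate groups and a higher mean of at least 5 CPM that were among the 15 largest or 10 smallest p in a direction, up to 5 leading members of each list in a direction plus those that complete it, and the 5 smallest p of the interaction in each direction; others are marked. Positions are from the Ensembl BDGP6 annotation (dm6 coordinates), matched by symbol for 16964 of 17104 genes. 41 called genes named in the text overlap an annotated gene of at least 25% of their own level, which makes their counts uncertain: Actn, AspRS, Atg5, bocks, brk, CG10738, CG15120, CG2909, CG32259, CG43920, CG7409, COX5A, cry, Cyp4e1, Dcr-2, Def, DNApol-delta, edin, eIF6, Elk, Fer1HCH, Fer2LCH, gammaSnap1, He, Hr4, key, l(1)G0255, l(2)efl, ND-B8, NimB1, Nup44A, Pgk, PGRP-SD, PIP4K, pll, ProRS-m, sei, SerRS-m, St3, TpnC25D and Vha44. Alternatives covered scaling, filter, tool, threshold, samples in the fit, a replicate block, gut RNA, the clock gene level and single libraries.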

Additional observations from a re-analysis of the deposited data

Results flagged for a closer look

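A library was marked as far from the others of its group where its gap to the nearest value, over the range of the group, passed Dixon's 95% critical value of 0.71 for 5 libraries. Of 560 groups of 5 tested over the genes named and the gut marker sum, 44 passed, and chance marks about 1 in 20. At 1 week library 1 was highest for Drs at 152 CPM, IM1 at 237 CPM, Lsd-1 at 767 CPM and Tps1 at 4139 CPM, and lowest for ref(2)P at 2383 CPM. At 1 week library 2 was highest for Fbp2 at 1.57 CPM, Gapdh1 at 725 CPM and Tep1 at 8.28 CPM. At 1 week library 3 was highest for foxo at 105 CPM and the gut marker sum at 12759 CPM. At 1 week library 4 was highest for CG10814 at 3.31 CPM, DptA at 139.5 CPM and SPH93 at 7.95 CPM. At 1 week library 5 was highest for Atg8a at 570.1 CPM, CG42246 at 2.85 CPM, Ca-beta at 47.5 CPM, DNApol-delta at 7.70 CPM, Nipped-B at 119 CPM, Tm1 at 678 CPM, Zasp52 at 482 CPM, nrv3 at 19.1 CPM and vn at 20.4 CPM. At 5 weeks library 2 was highest for Acon at 533 CPM, AttD at 241 CPM, CG13091 at 1186 CPM, Cpr49Ae at 4.27 CPM, PPO1 at 76.8 CPM, PPO2 at 72.5 CPM, Tpi at 285 CPM, lectin-33A at 230.2 CPM and lz at 2.04 CPM, and lowest for GstT1 at 45.4 CPM and ben at 126 CPM. At 5 weeks library 3 was highest for AspRS at 237 CPM, Fbp1 at 16.3 CPM, ND-B8 at 0.116 CPM, TrpRS at 39.4 CPM and the gut marker sum at 18444 CPM, and lowest for Lsd-1 at 212 CPM. At 5 weeks library 4 was highest for CG34327 at 0.313 CPM, CG6421 at 7.54 CPM, CG6435 at 5.73 CPM and Hr4 at 3.75 CPM. At 5 weeks library 5 was highest for Keap1 at 63.8 CPM.

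The test of the difference between strains marked the following genes named in the text, with the age effect in attp2 less that in w1118 on the log2 scale. Higher in attp2 were AlaRS at 0.58, CG4291 at 2.14, CG44774 at 1.47, CG5830 at 1.24, CG7409 at 3.70, Cyp4p2 at 1.97, DNApol-delta at 3.31, IleRS at 0.51, Keap1 at 0.96, Set1 at 0.73, ValRS at 0.82 and bor at 0.92. Lower in attp2 were Atg9 at -0.52, CG10026 at -1.88, CG15120 at -2.61, CG31313 at -1.74, CG42795 at -2.88, CG6421 at -1.46, CG6426 at -1.54, CG6435 at -1.72, Kaz1-ORFB at -1.70 and Men at -1.31. The totals without single libraries are given with the comparison of strains.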

How the results depend on the processing

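The 964 rises and 1054 falls with age stayed within 1.5 times under DESeq2 size factors, upper quartile scaling, both other filters, the DESeq2 Wald test, a fit of the 10 attp2 libraries alone, the clock gene as a covariate and without the libraries of high gut level. With library totals they were 1790 and 488, at an adjusted p of 0.01 454 and 528, in libraries 3 to 5 alone 428 and 722, and in libraries 1 and 2 alone 105 and 66; the last pair of settings used fewer samples and, like the clock covariate, was added after seeing the data. Leaving out each library in turn gave 690 to 985 rises and 788 to 1123 falls. The 79 genes with a strain difference became 133 with at least 5 CPM in 4 libraries, 418 with the DESeq2 Wald test and 11 to 271 without single libraries; the cause was not tested. Of 6056 recomputed fold changes of 265 called genes named in the text none changed sign and 676 lost the threshold, 187 of them in libraries 1 and 2 alone. The simulation changed 200 genes, far fewer than were called here, and the adjusted p depends on that number. Its recovery therefore does not give the share of 2-fold changes missed in these data.

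With the replicate number as a block 1122 genes rose and 1215 fell, and 176 genes differed between strains with the block within strain. Of the 7 Malpighian tubule markers 3 rose under the block. The deviations of same-numbered attp2 libraries from their group means had correlations of 0.603, 0.528, 0.929, -0.260 and 0.523 for numbers 1 to 5 over 7023 genes. Number 4 did not deviate together, so the libraries share a number and were not treated as pairs; a call lost under the block is not a weaker effect.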

Other observations

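Neighbouring genes that encode lysozyme-type enzymes were among those with an age effect lower in attp2 than in w1118 hearts. CG6426, CG6421 and CG6435, which lie within the same stretch of chromosome 2R, differed by -1.54, -1.46 and -1.72 on the log2 scale (adjusted p = 0.029, 0.043 and 0.035). CG6426 was at 148, 92.6, 102, 109.6 and 81.6 CPM and then 51.0, 69.9, 46.5, 72.3 and 44.0 CPM in attp2 and at 103, 161, 142 and 164 CPM and then 232, 289.6, 166 and 208 CPM in w1118. A metabolic and a stress response gene differed as well: Men, the malic enzyme gene, by -1.31 (adjusted p = 0.029) and Keap1, the gene of the Nrf2 inhibitor, by 0.96 (adjusted p = 0.029). These genes were chosen after their values were seen.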
